A study of Arabidopsis thaliana with 12 samples.

Results

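The transcripts of 10 genes that encode parts of the nuclear pore were measured by RNA-seq of *Arabidopsis thaliana* rosettes, in leaves of *kaku4-2* plants and of the WT. The genes were taken by locus identifier. They were *NUP136* (also named *NUP1*) and *NUP82* of the nuclear basket, 7 genes of the NUP107-160 subcomplex (*NUP160*, *NUP96*, *NUP107*, *NUP133*, *NUP85*, *NUP43* and *SEH1*), and *NUP88*, also named *MOS7*. All 10 were among the 23069 genes with a deposited value, and every value of theirs was above 0. *kaku4-2* is a single T-DNA insertion line in *KAKU4*, which encodes a component of the nuclear lamina at the inner nuclear membrane, and the study describes it as a knockdown. The WT is Col-0. Leaves were taken from plants 30 days old, and each genotype had 3 libraries from independent samples. The ChIP-seq samples of the series were not analysed here. In a network assembled by the study from protein interactions, KAKU4 was linked with NUP136, NUP82, NUP107 and NUP133, and this comparison gives the transcript levels of these partners when *KAKU4* is reduced.

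The nuclear pore complex spans both membranes of the nuclear envelope and carries proteins and RNA between the cytoplasm and the nucleus. The NUP107-160 subcomplex forms its outer rings, which lie on the cytoplasmic and on the nuclear face. The basket hangs from the nuclear ring and lies next to the lamina and the chromatin. In plants, mutants of several of these genes are known for defects in mRNA export, auxin response, flowering time and immunity.

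None of the 10 pore genes was called changed in *kaku4-2*. *NUP160* had the largest fitted difference, 0.90 ± 0.47 on the log2 scale (SE), and *NUP107* followed with 0.86 ± 0.48, both higher in *kaku4-2*. *NUP43* was the member with the largest difference below 0, at -0.33 ± 0.29. Most of the higher values of the longer members came from 1 library, *kaku4-2* replicate 3, as described further on.

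The 2 call rules were both applied to a limma fit of log2(FPKM + 0.1), where FPKM is the number of fragments scaled to transcript length and sequencing depth. By the cutoff of the study, a gene is called where the log2 ratio of the median FPKM is at least 0.6 in size with an unadjusted p of at most 0.05. By this cutoff 0 of the 10 members were higher and 0 were lower, where 5.02% of the 20638 genes tested were higher and 6.64% were lower. The log2 ratio of the medians was past 0.6 in *NUP88* only, at 1.06 with an unadjusted limma p of 0.405. It was 0.54 for *NUP160* and 0.46 for *NUP107*. The second rule was an adjusted p of at most 0.05 (Benjamini-Hochberg over all genes tested). It called 0 members, against 0.242% of all genes higher and 0.237% lower. An unadjusted p of at most 0.05 was reached by 0 of the 10 members and by 3105 of the 20638 genes tested. Over all genes the cutoff called 1037 higher and 1370 lower, and with the length trend of each library removed 1370 higher and 1116 lower. The p-values here are those of limma, so the calls are not the calls of the study. The study reported more genes in both directions, with more higher than lower. The standard errors of the members ran between 0.27 and 0.64 on the log2 scale. *NUP160* and *NUP107* had log2 ratios of medians under 0.6 and unadjusted limma p-values above 0.05. With 3 libraries a genotype, neither rule called them, even at ratios of means of 2.19 (*NUP160*) and 1.98 (*NUP107*). Differences of that size in the less abundant members could thus go without a call.

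*KAKU4* itself (AT4G31430) was examined first as a check of the labels. It had 0.402, 0.433 and 0.313 FPKM in *kaku4-2*, against 2.69, 3.61 and 2.51 FPKM in the WT. The genotypes did not overlap, and the fitted difference was -2.64 ± 0.41 on the log2 scale (limma, adjusted p = 0.00933). The fragments behind these values were estimated at 19.5 to 20.5 in a *kaku4-2* library and 94.6 to 146 in a WT library. The level of the targeted gene went with the label in all 6 libraries. The leaf genes *RBCS1A*, *RCA* and *LHCA3* summed to 10581 to 13168 FPKM in *kaku4-2* libraries and 11123 to 13800 FPKM in WT libraries, whereas the 4 flower genes measured summed to at most 1.64 FPKM in *kaku4-2* and 3.41 FPKM in the WT. The shoot meristem gene *STM* was not near 0. It had 10.1, 10.2 and 5.25 FPKM in *kaku4-2*, against 11.6, 11.7 and 16.4 FPKM in the WT, without overlap and not called (-0.67 ± 0.33, adjusted p = 0.343), and *CLV3* had at most 0.306 FPKM.

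By the read numbers that the study reported, the libraries were nearly alike in depth. From the spacing of low FPKM values, the number of fragments that FPKM had been divided by was estimated at 24600000, 24100000 and 31900000 in *kaku4-2* replicates 1, 2 and 3, and at 23800000, 20600000 and 19300000 in WT replicates 1, 2 and 3. These are estimates, since FPKM are not counts, and they are not the depths that the study reported. That of *kaku4-2* replicate 3 would exceed its read pairs if the study counted single reads. Fragment numbers given here for single genes rest on these estimates and are approximate. *kaku4-2* replicate 3 stood apart from the other 5 libraries: its FPKM summed to 829806, against 1245643 and 1285627 in the other *kaku4-2* libraries and 1298744 to 1767459 in the WT. In that library, genes with long transcripts had higher values and genes with short transcripts lower ones. Of 3589 genes with transcripts of 2500 to 5000 bases, 90.7% were higher in it than in the mean of *kaku4-2* replicates 1 and 2, with a median difference of 1.09 on the log2 scale. Of 10029 genes with transcripts of 1000 to 2000 bases, 38.2% were higher, with a median difference of -0.30. Since 8 of the 10 members have transcripts of 2578 to 4756 bases, the difference of each member is also given without this library.

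**Figure D1:**
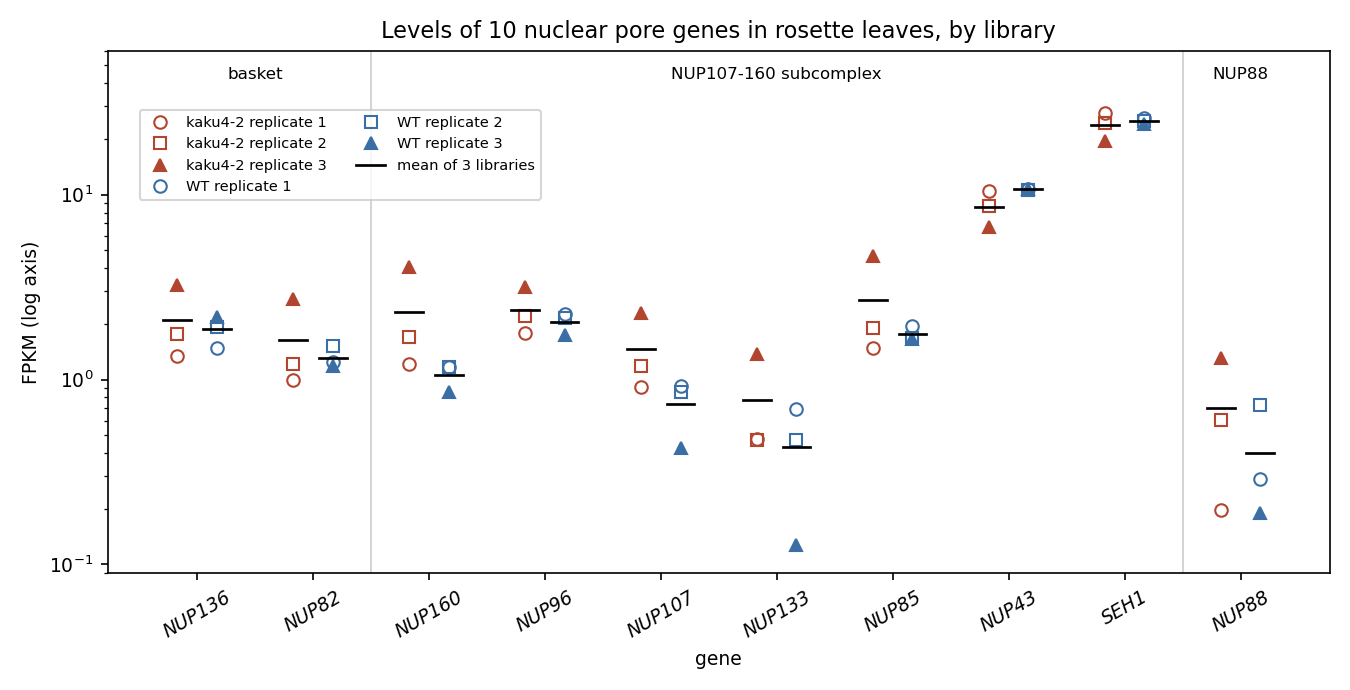
FPKM on a log axis of the 10 pore genes, with *kaku4-2* left of WT for each gene; each symbol is 1 library (circle, square and filled triangle for replicates 1, 2 and 3) and the black line is the mean of 3. *SEH1* and *NUP43* stand above the other 8 genes in both genotypes, and the filled triangle of *kaku4-2* is the highest of the 6 libraries in those 8 genes and the lowest in *NUP43* and *SEH1*.

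The basket genes did not differ beyond the spread between libraries. *NUP136* (AT3G10650, chr3:3325074-3331282 of TAIR10.1, minus strand) encodes a plant basket protein that lies near the lamina and affects the shape of the nucleus. It had 1.34, 1.76 and 3.23 FPKM in *kaku4-2*, against 1.49, 1.93 and 2.18 FPKM in the WT. The WT values lay inside the range of the *kaku4-2* values, and the fitted difference was 0.10 ± 0.41 (adjusted p = 0.910, limma). *NUP82* (AT5G20200, chr5:6816612-6821827, plus strand) encodes a related protein that shares functions with NUP136. Its levels were 0.997, 1.21 and 2.73 FPKM in *kaku4-2*, against 1.24, 1.51 and 1.19 FPKM in the WT, with a fitted difference of 0.19 ± 0.44 (adjusted p = 0.832). In both genes *kaku4-2* replicate 3 was the highest library and *kaku4-2* replicate 1 was below the lowest WT value. With *kaku4-2* replicate 3 left out, the difference was -0.25 for *NUP136* and -0.23 for *NUP82*, so that both directions turned, and neither gene was called. The ratio of *NUP136* to *NUP82* within a library was 1.33 ± 0.13 in *kaku4-2* and 1.44 ± 0.34 in the WT (SD, n = 3 each), with overlapping ranges. Transcript models of *NUP136* overlap those of 2 neighbours on the same strand, *VPS60.1* by 12 bases and *CPK2* by 219 bases, and fragments from there cannot be told apart.

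*NUP160* was the member whose genotypes stood apart in the higher direction. It encodes a large scaffold protein of the outer ring and is known as *SAR1*, a suppressor of auxin resistance (AT1G33410, chr1:12109561-12118861, minus strand). *NUP160* had 1.22, 1.69 and 4.07 FPKM in *kaku4-2*, against 1.17, 1.17 and 0.854 FPKM in the WT. The lowest *kaku4-2* value lay just above the highest WT value, and the ratio of the means was 2.19. The fitted difference of 0.90 ± 0.47 had an unadjusted p of 0.0760 and an adjusted p of 0.354 in the limma fit. An exact permutation test of 3 against 3 libraries, two-sided, cannot go below 0.1, which is the value it gives for a gene without overlap. Leaving out *kaku4-2* replicate 3 gave a difference of 0.42 ± 0.35 (adjusted p = 0.610), and the genotypes still did not overlap. Without *kaku4-2* replicate 1 it was 1.24 ± 0.52, and the gene then passed the cutoff of the study (unadjusted p = 0.0250, adjusted p = 0.239). The log2 ratio of the medians was then 1.31, with the high *kaku4-2* replicate 3 among the values left, and it was 0.32 without *kaku4-2* replicate 3. Whether *NUP160* was called thus depended on which library was left out.

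The genotypes of the other long members of the ring overlapped. *NUP96* is also named *SAR3* and *MOS3*, and it is known for a role in the immune response of an autoimmune mutant (AT1G80680, chr1:30323882-30328880, plus strand). *NUP96* had 1.79, 2.20 and 3.17 FPKM in *kaku4-2*, against 2.26, 2.16 and 1.75 FPKM in the WT, and a fitted difference of 0.17 ± 0.37 (adjusted p = 0.810). The genotypes overlapped, and without *kaku4-2* replicate 3 the difference was -0.04. The start of *NUP96* overlaps by 21 bases the start of *RAE1*, another pore gene that runs on the opposite strand.

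Upstream sequence was read for 4 motifs in the 250 bases before each annotated gene start. The site II element (TGGGCC, either strand), which is common before genes of growing and dividing plant cells, was in the windows of 4 of 10 members and in 15.5% of 22880 windows of all genes in the file. Below are the 30 bases that hold it in each of these 4 genes, 5′ to 3′ on the strand of the gene, with the element in capitals. They were chosen after the values were seen, to show *NUP160*, the member with the largest difference, beside the others that carry the element.
NUP160: cctaaaTGGGCCgtatctaGGCCCAataaa
NUP96: taatattTGGGCCttattatGGCCCAatgt
NUP133: tttacgTGGGCCgacgacaacagagcccaa
NUP88: agttaaTGGGCCgaataaaagcccattaaa
The stretches are chr1:12118905-12118934 (minus strand), chr1:30323852-30323881 (plus), chr2:1847059-1847088 (minus) and chr5:1698205-1698234 (plus) of TAIR10.1. *NUP160* and *NUP96*, named *SAR1* and *SAR3* as suppressors of auxin resistance, both held the element on each strand with 7 bases between the 2 copies, whereas 6.06% of all windows held 2 or more copies. The fitted differences between genotypes were 0.90 ± 0.47 for *NUP160* and 0.17 ± 0.37 for *NUP96*, and the gap between these 2 was not tested. The W box core (TTGAC) was in 5 of 10 windows, against 45.1% of all windows. The telo box (AAACCCTA) and the G box (CACGTG) were in 0 of 10, against 3.74% and 7.19% of all windows. In 7 of 10 members the window lies in or over another annotated gene, and a match in these letters is a description of the sequence alone.

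*NUP107* (AT3G14120, chr3:4677699-4685666, plus strand) and *NUP133* (AT2G05120, chr2:1841876-1846949, minus strand) encode the proteins at the stem of the Y-shaped subcomplex, which bind each other directly, and the upstream stretch of *NUP133* is the one shown above. *NUP107* had 0.917, 1.18 and 2.28 FPKM in *kaku4-2*, against 0.926, 0.855 and 0.428 FPKM in the WT. The ranges touched in 1 pair of libraries only, since the lowest *kaku4-2* value lay just below the highest WT value, and the difference of 0.86 ± 0.48 had an adjusted p of 0.369. *NUP133* had 0.480, 0.469 and 1.38 FPKM in *kaku4-2*, against 0.693, 0.472 and 0.127 FPKM in the WT, with a difference of 0.75 ± 0.60 (adjusted p = 0.499). WT replicate 3 was the lowest library in both genes, and its *NUP133* value rested on an estimated 9.66 fragments. The ratio of *NUP107* to *NUP133* was 2.03 ± 0.45 in *kaku4-2* and 2.17 ± 1.06 in the WT (SD, n = 3 each). The differences without *kaku4-2* replicate 3 were 0.51 for *NUP107* and 0.29 for *NUP133*, still above 0. Without WT replicate 3 the difference of *NUP133* was 0.23.

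*NUP85* (AT4G32910, chr4:15881245-15885518, plus strand) encodes a scaffold protein of the short arm of the ring, and its *Lotus japonicus* counterpart is required for root symbiosis. It had 1.49, 1.89 and 4.65 FPKM in *kaku4-2*, against 1.96, 1.67 and 1.66 FPKM in the WT. The *kaku4-2* values lay on both sides of those of the WT, and the difference was 0.41 ± 0.44 (adjusted p = 0.611), or -0.06 without *kaku4-2* replicate 3.

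*NUP43* and *SEH1* encode small WD40 repeat proteins that bind the scaffold of the ring, and they were the only members with a transcript under 2000 bases. *NUP43* (AT4G30840, chr4:15017472-15019771, minus strand) had 10.5, 8.67 and 6.71 FPKM in *kaku4-2*, against 10.7, 10.6 and 10.7 FPKM in the WT. All 3 *kaku4-2* libraries were below all 3 WT libraries, although *kaku4-2* replicate 1 lay close to them, and the difference of -0.33 ± 0.29 had an adjusted p of 0.542. It was -0.16 ± 0.21 without *kaku4-2* replicate 3. *SEH1* (AT1G64350, chr1:23881512-23883354, plus strand) had 27.6, 24.4 and 19.6 FPKM in *kaku4-2*, against 26.1, 24.9 and 24 FPKM in the WT, with a difference of -0.08 ± 0.27 (adjusted p = 0.880). This turned to 0.05 ± 0.18 without *kaku4-2* replicate 3 and to 0.10 with quantile normalization. In both genes *kaku4-2* replicate 3 was the lowest of the 6 libraries. *SEH1* stood in a nearly fixed ratio to *NUP43* within a genotype, 2.79 ± 0.15 in *kaku4-2* and 2.35 ± 0.10 in the WT (SD, n = 3 each). The ratio was 2.63, 2.81 and 2.92 in the *kaku4-2* libraries, against 2.44, 2.35 and 2.25 in the WT libraries, with no overlap, and it was 1 of 3 such ratios computed (two-sided exact permutation p = 0.1, the smallest possible). The mean ratio of *kaku4-2* replicates 1 and 2 was 2.72.

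*NUP88*, known as *MOS7*, encodes a protein of the cytoplasmic side that is needed for the nuclear accumulation of defence proteins (AT5G05680, chr5:1698270-1702659, plus strand). Its mean was the lowest of the members in both genotypes, though its ranges overlapped those of *NUP133*. *NUP88* had 0.197, 0.604 and 1.3 FPKM in *kaku4-2*, against 0.290, 0.727 and 0.190 FPKM in the WT. The values differed more between libraries of 1 genotype than between genotypes, and the difference was 0.55 ± 0.64 (adjusted p = 0.640). An estimated 12 to 102 fragments stood behind the *kaku4-2* values and 8.99 to 36.9 behind the WT values. Leaving out 1 library at a time gave 0.01 (without *kaku4-2* replicate 3) to 1.13 (without *kaku4-2* replicate 1), with 0.98 without WT replicate 2 and 0.22 without WT replicate 3.

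Counted over the members, 8 of 10 had a higher fitted level in *kaku4-2*, with a median log2 fold change of 0.30. Of the 20638 genes tested, 10092 were higher and the median was -0.02. Without *kaku4-2* replicate 3, 5 of 10 members (9281 of 20555 genes tested) were higher. The median of the members was then -0.02, beside -0.05 over all genes tested. The median was 0.59 without *kaku4-2* replicate 1, 0.42 without *kaku4-2* replicate 2 and 0.03 with library weights. With the length trend of each library removed, 6 of 10 (10321 of 20638 genes tested) were higher and the median was 0.09. The genotypes did not overlap in 1 member in the higher direction (*NUP160*) and in 1 in the lower (*NUP43*), where 7.92% of all genes tested were without overlap and higher and 15.0% without overlap and lower. With median ratio scaling, quantile normalization or the length trend removed, *NUP43* overlapped and *NUP107* did not, which gave 2 members in the higher direction and 0 in the lower. Over all genes these settings gave 9.73%, 9.03% and 11.3% without overlap and higher, and 12.1%, 11.2% and 12.9% without overlap and lower, in the order named.

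**Figure D2:**
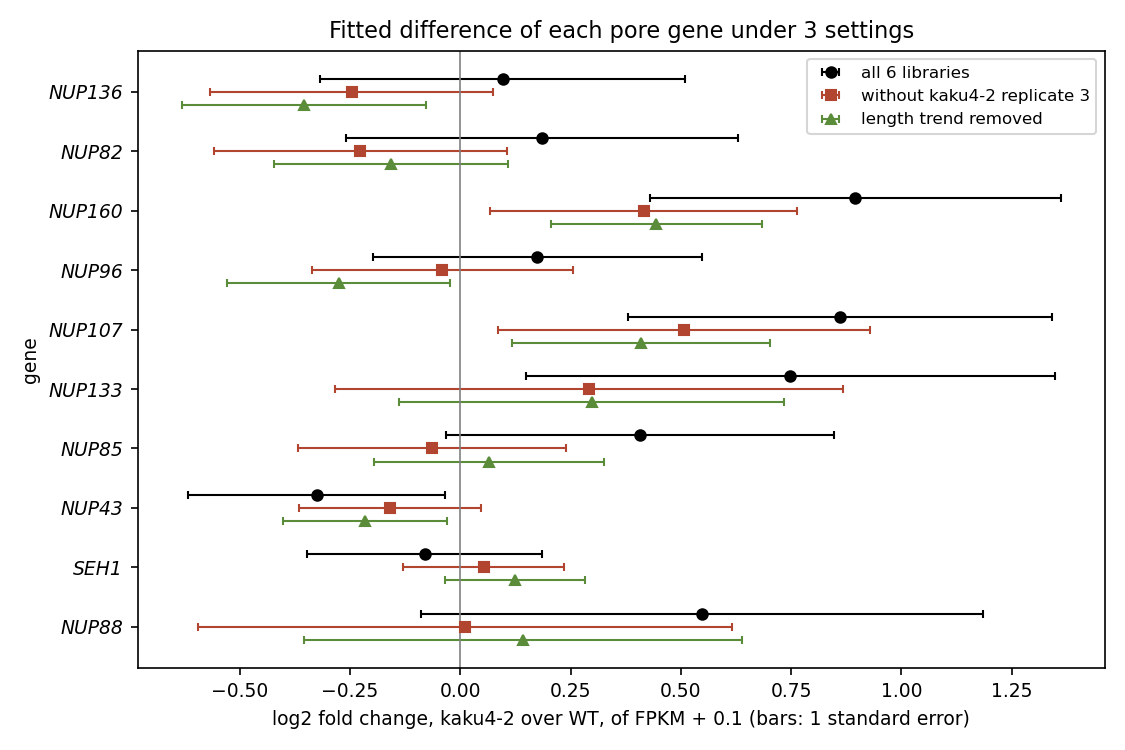
Fitted log2 fold change of each pore gene, *kaku4-2* over WT, with all 6 libraries (black circles), without *kaku4-2* replicate 3 (red squares) and with the length trend of each library removed (green triangles); bars are 1 standard error. *NUP160* stays to the right of 0 at 0.90, 0.42 and 0.44, whereas *NUP136* lies at 0.10, -0.25 and -0.36.

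Among the members, the shift in *kaku4-2* replicate 3 parted the 8 longer transcripts from the 2 shorter ones, which were also the most abundant. Relative to the mean of *kaku4-2* replicates 1 and 2, this library was higher in the 8 members with longer transcripts, by 0.65 (*NUP96*) to 1.61 (*NUP88*) on the log2 scale. It was lower in *NUP43* (-0.50) and in *SEH1* (-0.40). Within the 8 longer members the shift did not run in order of length, at 1.61 in *NUP88* (2712 bases) against 1.03 in *NUP136* (4659 bases). Among the other lists this library was higher in 18 of 18 other pore genes (median 1.26) and in 11 of 14 transport partners (median 0.79). It was higher in 49.1% of the 20468 genes tested that had a length. The 18 include the short transcripts of *NUP54* (1538 bases, 1.03), *RAE1* (1612 bases, 1.04) and *NUP58* (1993 bases, 1.05). Over all genes with transcripts of 1000 to 2000 bases the median was -0.30. Of the 4 genes of dividing cells that were measured, 3 were also highest in *kaku4-2* replicate 3, among them *CDKB2;1* at 1.62, 2.56 and 4.22 FPKM in *kaku4-2*, against 1.97, 2.25 and 2.01 FPKM in the WT. *KNOLLE*, the other of the 4 and the most abundant, had 18.1, 15.7 and 17.3 FPKM in *kaku4-2*, against 18.2, 12 and 12 FPKM in the WT. It made up most of the sum of the 4 genes. That sum was 21.9, 20.5 and 25.9 FPKM in *kaku4-2*, against 22.6, 15.6 and 14.7 FPKM in the WT. *STM* moved the other way and was lowest in *kaku4-2* replicate 3. The part that transcript length, depth or the share of dividing or meristem cells has in the result was not tested. In whole leaves, fewer cells of a type and less RNA per cell cannot be told apart.

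**Figure D3:**
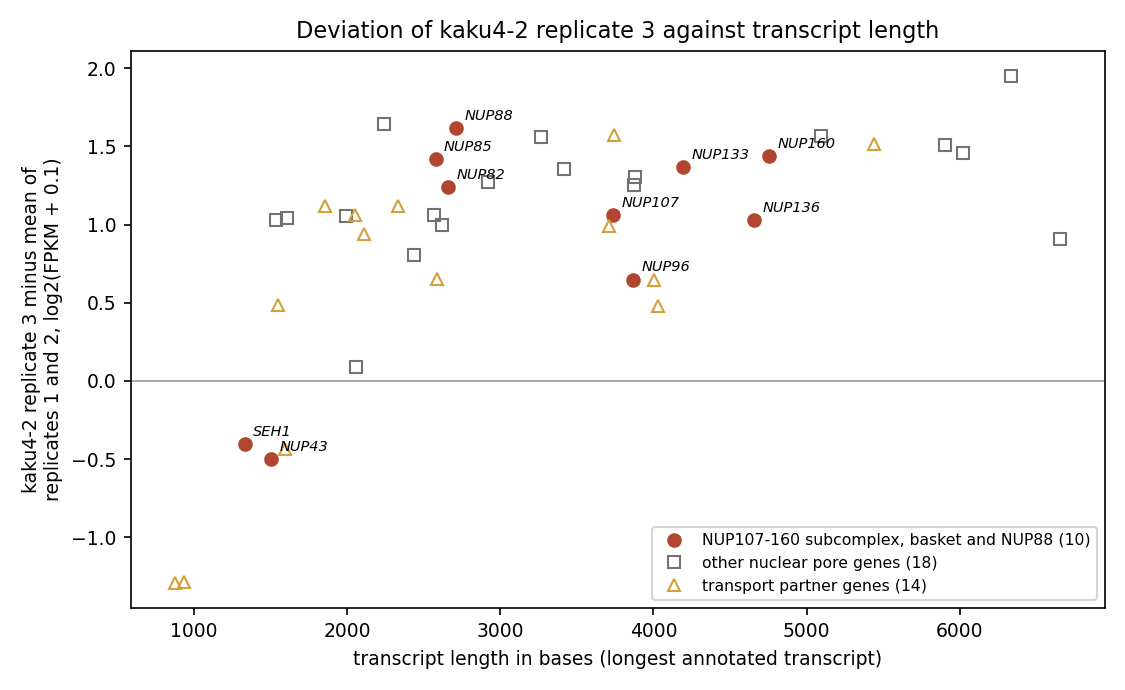
Difference between *kaku4-2* replicate 3 and the mean of *kaku4-2* replicates 1 and 2, in log2(FPKM + 0.1), against the length of the longest annotated transcript, for the 10 pore genes (filled red circles, named), 18 other pore genes (open squares) and 14 transport partners (open triangles). The 8 members above 2500 bases lie between 0.65 and 1.61, and *SEH1* and *NUP43* lie at -0.40 and -0.50.

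The members differed far more from each other than between genotypes. FPKM is per length, and the levels of different genes are set side by side here. The values of *kaku4-2* replicate 3 nevertheless shifted with transcript length. *SEH1* and *NUP43*, which stood highest, are also the 2 members with the shortest transcripts. The part of length in the order of the members was not tested. *SEH1* led in both genotypes with 23.9 ± 4.0 FPKM in *kaku4-2* and 25.0 ± 1.1 FPKM in the WT (SD, n = 3 each). *NUP43* came next with 8.62 ± 1.89 FPKM in *kaku4-2* and 10.7 ± 0.04 FPKM in the WT. These 2 ranges overlapped neither with each other nor with those of the members below. In *kaku4-2* the order then ran *NUP85*, *NUP96*, *NUP160*, *NUP136*, *NUP82*, *NUP107*, *NUP133* and *NUP88*, between 2.68 ± 1.72 and 0.70 ± 0.56 FPKM, and each neighbour overlapped the next. That order of the middle genes was not seen without *kaku4-2* replicate 3: in replicates 1 and 2 *NUP96* was above *NUP85*, and *NUP85* above *NUP136* and *NUP160*. In the WT the order was *NUP96*, *NUP136*, *NUP85*, *NUP82*, *NUP160*, *NUP107*, *NUP133* and *NUP88*, between 2.06 ± 0.27 and 0.40 ± 0.29 FPKM. There the ranges parted between *NUP85* and *NUP82* and between *NUP82* and *NUP160*. Among all genes tested, *SEH1* stood between percentiles 73.4 and 77.1 of a library, *NUP43* between percentiles 51.3 and 61.1, and the other 8 between percentiles 5.71 and 42.9. The 10 genes together summed to 46.5, 44.1 and 49.1 FPKM in *kaku4-2*, against 46.9, 46.0 and 43.0 FPKM in the WT, a total that *SEH1* and *NUP43* dominate. The 8 longer members alone summed to 8.436, 11.01 and 22.82 FPKM in *kaku4-2*, against 10.02, 10.49 and 8.379 FPKM in the WT.

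The level of each member was also set against the mean of the 10 members in its library, which removes any factor common to a library. By this share, *NUP160* and *NUP107* were the 2 members without overlap between genotypes. The share is defined for the members alone, so no background over all genes can be set beside this count. The share of *NUP160* was -0.43, -0.27 and 0.20 on the log2 scale in *kaku4-2*, against -0.68, -0.75 and -0.70 in the WT. That of *NUP107* was -0.81, -0.75 and -0.61 in *kaku4-2*, against -0.98, -1.16 and -1.56 in the WT. Both shares were higher in *kaku4-2*, by 0.54 and 0.51, by 0.36 and 0.45 without *kaku4-2* replicate 3, and by 0.40 and 0.36 with the length trend removed. With the length trend removed, the share of *NUP107* overlapped, at -0.70, -0.73 and -0.95 in *kaku4-2*, against -0.88, -1.15 and -1.44 in the WT, and that of *NUP160* did not. No share was without overlap in the lower direction, except that of *NUP82* (-0.28) once *kaku4-2* replicate 3 was left out. The share of *NUP43* differed by -0.68, by -0.21 without *kaku4-2* replicate 3 and by -0.26 with the length trend removed.

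The other pore genes gave a similar picture. Of 26 identifiers listed by function, 18 had a matching name, product, note or synonym in the reference annotation, and these were counted. The annotated product need not name the pore: that of *HOS1* is a ubiquitin-protein ligase. By the cutoff of the study 1 of 18 was higher and 0 were lower, where 5.02% of all genes tested were higher and 6.64% lower. Of the 18, 13 were above 0, with a median log2 fold change of 0.20, and 10092 of all 20638 genes tested were above 0. The gene called was *NUP93B* (AT3G57350), 1 of a pair of genes for a scaffold protein of the inner ring. It had 0.598, 0.852 and 1.87 FPKM in *kaku4-2*, against 0.622, 0.301 and 0.263 FPKM in the WT, so that WT replicate 1 lay just above the lowest *kaku4-2* library. Its difference was 1.21 ± 0.53 (unadjusted p = 0.0395, adjusted p = 0.318). Without *kaku4-2* replicate 3 it was 0.79 ± 0.48 and the gene was not called, and it was also not called without *kaku4-2* replicate 2, WT replicate 2 or WT replicate 3. Without *kaku4-2* replicate 3, 6 of 18 were above 0 (9281 of 20555 genes tested) with a median of -0.14. Then 1 gene, *NUP54* of the central channel, was called lower (-0.60 ± 0.25). In that fit 4.65% of all genes tested were called higher and 6.66% lower. Without *kaku4-2* replicate 1, 4 of 18 were called higher (*NUP93B*, *NUP50b*, *HOS1* and *NUP188*), where 6.49% of all genes tested were higher and 11.8% lower in that fit. *NUP54*, *NUP50b*, *HOS1* and *NUP188*, like *NUP58*, *RAE1*, *CDKB2;1*, *KNOLLE* and *STM* above, are named after their values were seen.

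The 14 transport partners include exportins, importins and the TREX-2 complex of mRNA export. Of these, 0 were called by either rule and 10 were above 0 (10092 of the 20638 genes tested), with a median of 0.43. The median was 0.08 without *kaku4-2* replicate 3, and again 0 were called. No gene of the 2 lists was at 0 in any library.

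**Figure D4:**
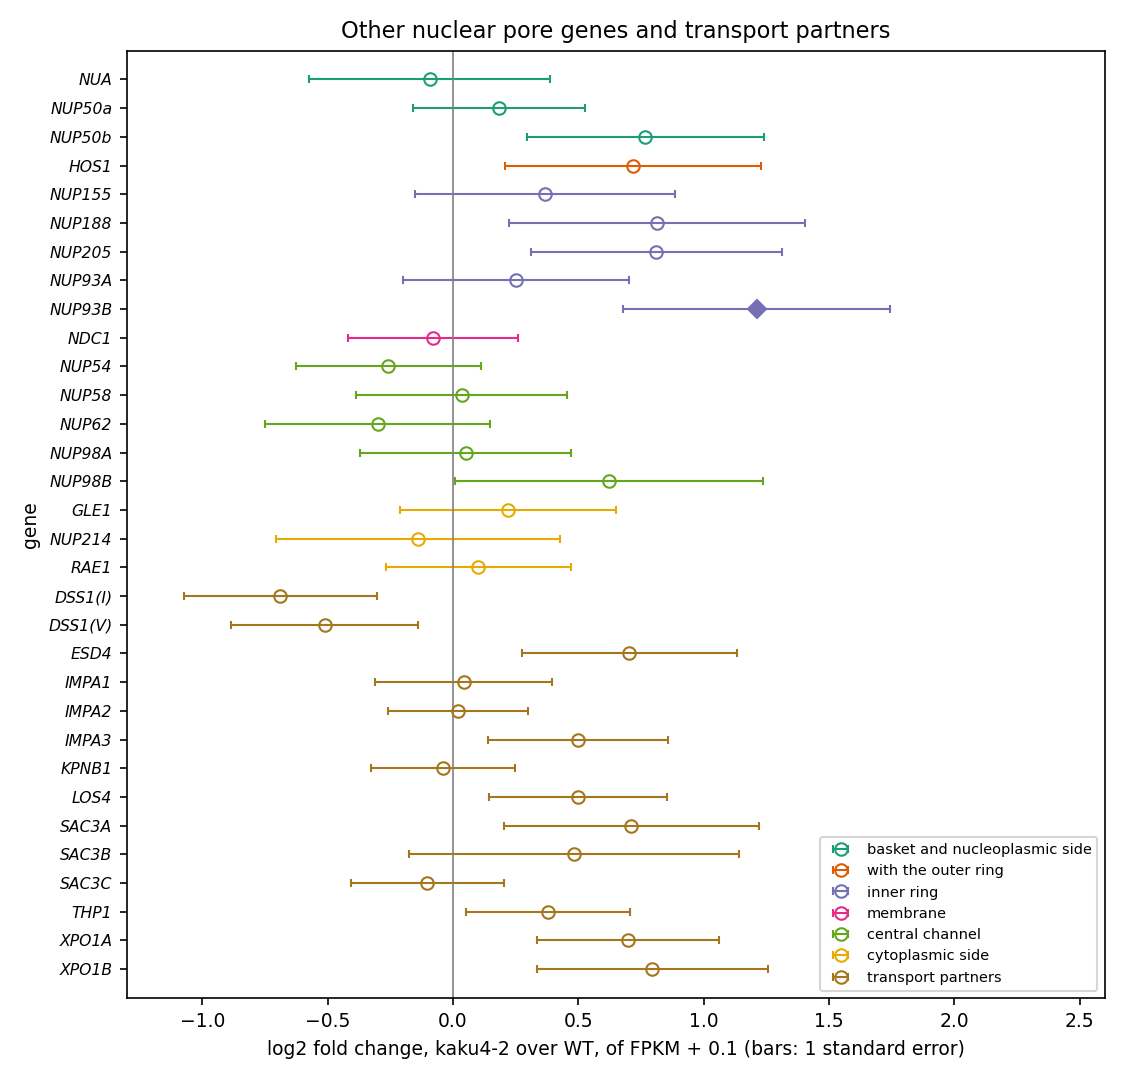
Fitted log2 fold change, *kaku4-2* over WT, of 18 other pore genes by their place in the pore and of 14 transport partners; bars are 1 standard error and the filled diamond marks the gene called by the cutoff of the study. *NUP93B* lies at 1.21, and the genes not called are open circles.

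By the mean of their deviations over the 6 libraries, the 10 members stood at -0.26, 0.02 and 0.77 on the log2 scale in *kaku4-2* replicates 1, 2 and 3, against -0.07, 0.00 and -0.46 in WT replicates 1, 2 and 3. The 5 genes with the nearest profile, out of 16488 with a mean of at least 1 FPKM, were *ACA4* (AT2G41560), which encodes a calcium pump, *XT1* (AT3G62720, a xylosyltransferase), AT4G39280 (a phenylalanyl-tRNA synthetase), *PGI1* (AT4G24620, a phosphoglucose isomerase) and AT5G41270 (annotated with an RNase P subunit domain). Their root mean square difference from the mean profile of the members was 0.0452 to 0.0547 on the log2 scale over 6 libraries. The transcripts of these 5 genes are 1133 to 4686 bases long.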

How the data were processed

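The study sequenced RNA of rosette leaves from 3 WT and 3 *kaku4-2* samples as paired-end reads. Per the paper and the submitters' processing notes, the deposited FPKM of 23069 genes were calculated by the authors with Cufflinks after alignment with TopHat2 2.0.9 to TAIR10. The Cufflinks version, the annotation and the use of strand are not given in the sources used here. Genotype and replicate number came from the names of the libraries.

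Genes that averaged 0.1 FPKM or more were tested on log2(FPKM + 0.1) with limma 3.58.1 in R 4.3.3, two-sided, with a mean-dependent prior variance and no covariate. The pseudocount makes fold changes of low genes smaller than they are. The fit was tested on simulated data. FPKM keep no counts, and the divisor of FPKM was estimated from low values of up to 3 fragments. Of these values 32.9% to 41.3% were whole to within 0.03 fragments (6% by chance). These estimates entered no test. Per library, the length trend was removed as the median deviation in 20 bins of transcript length, and 170 of the tested genes had no length. Names, positions and upstream sequence came from the RefSeq annotation of TAIR10.1, whose longest transcript gave the length.

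All members were named, with *KAKU4*, any gene of the 2 comparison lists that was called or at 0, and the 5 genes nearest in profile. The members and lists were chosen with earlier results of these data known. Of the other pore identifiers, 8 of 26 were left out because no annotated name, product, note or synonym matched. No protein sequence was used here.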

Additional observations from a re-analysis of the deposited data

How the results depend on the processing

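The 10 members were refitted under 20 alternatives to the settings above. At the adjusted p, 0 members were called under each of those it was run for. Library weights called 2173 of all 20638 genes higher and 2881 lower by that rule. The replicate block with the length trend removed called 0 of all genes, so its 0 members carry no information. By the cutoff of the study the count over leave-one-out fits was 0 to 1, and it was 0 elsewhere. The 1 was *NUP160* without *kaku4-2* replicate 1, where 6.49% of all genes tested were called higher and 11.8% lower. *NUP160*, *NUP107*, *NUP133* and *NUP43* kept their direction under every alternative in which they were tested; *NUP133* and *NUP88* were left out by a filter at a mean FPKM of 1. With quantile normalization the log2 fold change turned to -0.075 for *NUP136*, -0.020 for *NUP82* and 0.10 for *SEH1*. With the length trend removed, with or without the replicate block, it turned to -0.36 for *NUP136*, -0.16 for *NUP82*, -0.28 for *NUP96* and 0.12 for *SEH1*. With library weights it was -0.16 for *NUP136* and -0.22 for *NUP82*. Without *kaku4-2* replicate 3 and with median ratio scaling it was -0.19 for *NUP136*, -0.17 for *NUP82*, -0.0044 for *NUP85* and 0.12 for *SEH1*, and without it and with the length trend removed -0.29, -0.28, -0.11 and 0.13 for these genes, -0.081 for *NUP96* and -0.040 for *NUP88*. Leave-one-out ranges were -0.25 to 0.36 for *NUP136*, -0.23 to 0.46 for *NUP82*, -0.041 to 0.35 for *NUP96*, -0.065 to 0.73 for *NUP85*, -0.19 to 0.053 for *SEH1*, 0.42 to 1.24 for *NUP160*, 0.51 to 1.12 for *NUP107*, 0.23 to 1.13 for *NUP133*, -0.48 to -0.16 for *NUP43* and 0.01 to 1.13 for *NUP88*, and -0.02 to 0.59 for the median over the members. Causes were not tested.

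Of the other pore genes, 0 were called with a filter at a mean FPKM of 1, with quantile normalization and with the replicate block. Without *kaku4-2* replicate 3 and with median ratio scaling 0 were called too. With the replicate block and the length trend removed, 1 was called (*NUP62*, lower), where 5.63% of all genes were called higher and 4.77% lower. Library weights called 2 (*NUP93B* higher, *NUP54* lower), where 10.3% of all genes were called higher and 9.60% lower. Over leave-one-out fits 0 to 4 were called, where 2.64% to 7.33% of all genes were higher and 3.26% to 12.9% lower. With all 26 identifiers, an alternative added after the data were seen, 1 was called. Of the transport partners, 3 were called with library weights (*ESD4*, *XPO1A* and *XPO1B*, all higher) and 0 to 2 over leave-one-out fits, beside the same shares. These were *ESD4* and *XPO1A*, higher without WT replicate 1, and *DSS1(I)*, lower without *kaku4-2* replicate 2.

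The replicate numbers did not pair the samples: deviations of same-numbered libraries correlated at r = -0.16, -0.03 and -0.41 over the genes tested. The replicate block gave 706 higher and 1017 lower genes by the cutoff over all genes, against 1037 and 1370 without it, and 0 members. *KAKU4* stayed past the cutoff in 19 of 19 alternatives and past the adjusted p in 16, with adjusted p of up to 0.114.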
